A study of Bos taurus with 2 samples.

Results

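The retinoic acid genes described here are 9 of the 17846 genes measured in cells of day 25 bovine embryos. They were chosen by name: STRA6, ALDH1A2 and DHRS3, which act in retinol uptake, retinoic acid synthesis and retinal reduction; CRABP1 and CRABP2, which bind retinoic acid in the cell; CYP26B1, which degrades it; and the receptors RARA, RARB and RARG. All 9 were in the count table. The embryos were chimeras carrying incorporated bovine embryonic stem cells, and their cells were freed with papain, sorted through a gate not stated in the labels, and profiled with a 10x Genomics 3′ single-cell kit. The 2 libraries, replicate 1 and replicate 2, form a single group, with no control and no strain named. Whether they stem from separate embryos is not stated. The p-values rest on the spread of clusters between these libraries that is left after a term for library, and that spread may be technical.

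Retinoic acid is made from vitamin A. STRA6 carries retinol into the cell, retinol dehydrogenases turn it into retinal, DHRS3 turns retinal back into retinol, and ALDH1A2 makes retinoic acid from retinal. Retinoic acid enters the nucleus, where RAR receptors paired with RXR receptors switch genes on, among them HOX genes of the hindbrain and spinal cord. In vertebrate embryos the paraxial mesoderm makes much of it, CYP26 enzymes clear it from regions where it would be harmful, and CRABP proteins bind it in the cytoplasm of cells such as those of the hindbrain and neural crest.

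The count table gave 1973 barcodes with 11182089 UMI in replicate 1 and 2464 barcodes with 15427708 UMI in replicate 2, where a UMI (unique molecular identifier) counts 1 captured transcript. After filters 1842 and 2310 cells were analysed, with median depths of 5231.5 and 5966 UMI, and the libraries shared 2 barcode sequences. Cells fell into 23 clusters, found without the 9 genes and without the pathway and target lists used below. Clusters were called "-like" from markers, and 5 clusters (8, 13, 14, 18 and 20) kept a number only. Of these, clusters 14 and 20 held 67 and 1 cells in replicate 1, against 1 and 68 in replicate 2, so each came nearly all from 1 library. In 17 clusters with at least 20 cells per library, levels were tested as the cluster minus the unweighted mean of the other clusters. Those clusters differed in quality: ribosomal protein genes took 2.28% to 5.62% of UMI in clusters 0, 1, 2, 4, 6, 7, 11 and 15, against 15.0% to 28.7% in clusters 3, 8, 9, 10, 12, 13, 17 and 18. The part of this difference in the results below was not tested.

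Over all cells the 9 genes had between 14 and 45457 UMI. Levels are given as CPM (UMI of the gene per 1000000 UMI of the cells named), replicate 1 before replicate 2. CRABP1 stood at 1169 and 2127 CPM. RARB was at 56.3 and 45.7 CPM, RARA at 19.2 and 21.9, and DHRS3 at 10.1 and 15.6. The other 5 genes were scarce, with 73 UMI of ALDH1A2, 45 of RARG, 42 of STRA6, 39 of CYP26B1 and 14 of CRABP2 in both libraries together. CRABP2, CYP26B1 and RARG did not pass the filter on low counts in the test by cluster, which left 6 genes and 102 pairs of gene and cluster. Of these pairs 24 (23.5%) were called higher and 17 (16.7%) lower at adjusted p under 0.05 in edgeR's quasi-likelihood fit, with Benjamini-Hochberg adjustment over all genes tested. Among all other genes left out of clustering, 25.2% of pairs were called higher and 16.7% lower, so the 6 genes were called about as often as other genes. The results below therefore concern which clusters were high and low.

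**Figure D1:**
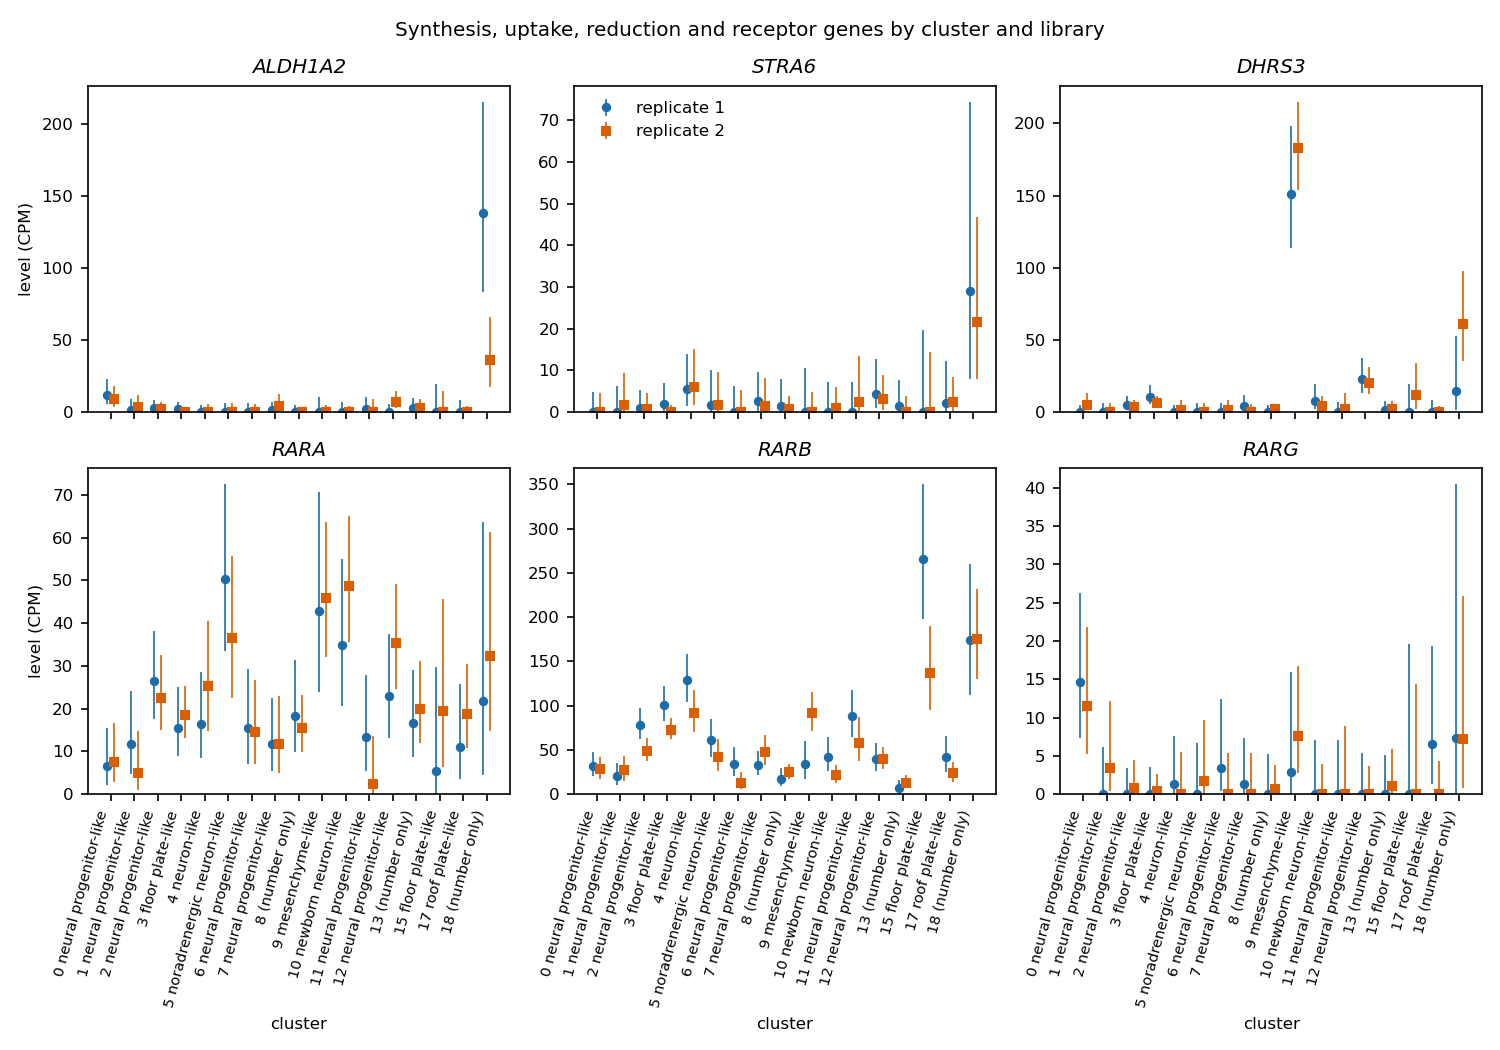
Level (CPM) of ALDH1A2, STRA6, DHRS3, RARA, RARB and RARG in each of the 17 tested clusters, with points for replicate 1 and replicate 2 and exact Poisson 95% intervals as bars. DHRS3 stands out in cluster 9 (151 and 183 CPM) and ALDH1A2 in cluster 18 (138 and 35.9 CPM). RARB stands out in clusters 15 (266 and 137 CPM) and 18 (175 and 176 CPM).

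Among the genes of uptake and synthesis, ALDH1A2, the main retinoic acid-making enzyme of early embryos, was highest in cluster 18. That small cluster held 20 and 33 cells and had 7 of 7 cardiomyocyte markers, 6 of 13 mesenchyme markers and 3 of 6 epithelium markers (KRT8, KRT18 and TP63). The summed levels of these lists were 1468, 2906 and 3529 CPM, and their part in the levels of the cluster was not tested. Divided again after its levels had been seen, cluster 18 gave sub-clusters 18a and 18b. Sub-cluster 18a, led by GPC5, had 13 and 15 cells, and 18b, led by DCN, MYL7 and TNNC1, had 7 and 18 cells. ALDH1A2 reached 138 CPM in replicate 1 (19 UMI in 8 cells) and 35.9 CPM in replicate 2 (10 UMI in 7 cells), with a log2 fold change of 6.76 (SE 0.68, adjusted p = 6.39e-13, edgeR). Both libraries were above every other tested cluster, in which the level ran from 0 to 12.03 CPM, and 8 of the 17 clusters had no ALDH1A2 UMI in either library. Within cluster 18, ALDH1A2 stood at 115 and 40.4 CPM in 18a and 162 and 33.4 CPM in 18b. The next level was that of cluster 0, neural progenitor-like cells led by TEX14, at 12.03 and 8.92 CPM (log2 fold change 3.37, SE 0.72, adjusted p = 5.29e-05, edgeR). DESeq2 did not call that difference (adjusted p = 0.252). Because so many clusters held no count, the fitted folds of ALDH1A2, STRA6 and DHRS3 depend on the prior count. Against the sum of all other cells the log2 fold of ALDH1A2 was 5.46 in cluster 18 and 1.76 in cluster 0.

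ALDH1A2 was also called higher in cluster 12, neural progenitor-like cells led by COL25A1, at 0 and 7.07 CPM, and in cluster 13 at 2.78 and 3.15 CPM, with edgeR adjusted p of 0.0117 and 0.0263. Both calls were lost with DESeq2, with limma-trend and against the sum of all other cells. In cluster 12 the 2 libraries did not show the same thing, since replicate 1 held no ALDH1A2 UMI.

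STRA6, the membrane receptor that takes up retinol from its carrier RBP4, was likewise highest in cluster 18, at 29.1 and 21.5 CPM (4 and 6 UMI; log2 fold change 4.74, SE 0.88, adjusted p = 1.86e-05, edgeR). It was called higher in neuron-like cluster 4 as well, at 5.45 and 5.94 CPM (log2 fold change 2.45, SE 0.81, adjusted p = 0.00836, edgeR). The cluster 4 value rested on 4 and 4 UMI. Counts were too few to tell whether the libraries differed: the intervals of their log2 ratio were −1.83 to 2.51 in cluster 18 and −2.55 to 2.30 in cluster 4. The STRA6 UMI of cluster 18 were 4 and 2 in sub-cluster 18a and 0 and 4 in 18b. Another call in cluster 12, at 4.32 and 3.03 CPM (edgeR adjusted p = 0.0491), was lost under 5 of the alternatives.

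DHRS3, which lowers the supply of retinal and is itself induced by retinoic acid, was highest in mesenchyme-like cluster 9. That cluster had 6 of 13 mesenchyme markers, whose list summed to 35766 CPM, together with APOA1 of the endoderm list (1 of 8 markers, 18365 CPM summed) and KRT8 and KRT19 of the epithelium list (2 of 6, 8886 CPM summed), and the part of these in its levels was not tested. Its level was 151 CPM in replicate 1 and 183 CPM in replicate 2, against 0 to 61.0 CPM over the other tested clusters. The log2 fold change was 7.15 (SE 0.28, adjusted p = 8.52e-33, edgeR), and 5.54 against the sum of all other cells. Cluster 9 supplied 53 of the 112 DHRS3 UMI of replicate 1 and 143 of the 238 of replicate 2. DHRS3 was seen in 17 of 34 and 49 of 71 of its cells, 50% and 69.01%, at median depths of 11945.5 and 12104 UMI. Erythroid-like cluster 19, which should lack the gene, had it in 11.1% and 19.05% of cells at the greater depths of 27366 and 24710 UMI.

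DHRS3 was also called higher in cluster 12, at 23.1 and 20.2 CPM (log2 fold change 3.40, SE 0.45, adjusted p = 5.19e-09, edgeR), and in cluster 18, at 14.5 and 61.0 CPM (log2 fold change 4.23, SE 0.60, adjusted p = 5.84e-08, edgeR). The cluster 18 value of replicate 1 rested on 2 UMI, and 15 of the 17 UMI of replicate 2 lay in sub-cluster 18b. The floor plate-like cluster 3, with SHH among its leading genes, stood at 10.7 and 6.65 CPM and was called higher than the mean of the other clusters (log2 fold change 2.01, edgeR adjusted p = 0.000346), but its level was below the sum of all other cells (log2 fold −0.46) and limma-trend did not call it (adjusted p = 0.0938). Epithelium-like cluster 21, too small for the test, had 150 and 42.4 CPM from 15 UMI in all. ALDH1A2 and DHRS3 thus peaked in different clusters: cluster 9 had no ALDH1A2 UMI in its 34 and 71 cells, which allows a share of cells with a UMI of up to 8.82% and 4.23%, intervals and floors here covering counting error only.

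CRABP1, a cytoplasmic retinoic acid-binding protein known from hindbrain neurons and neural crest, varied over more than 2 orders of magnitude among the tested clusters, from 92.0 to 22533 CPM. It was highest in cluster 10, newborn neuron-like cells whose leading genes include DLL3, HES6 and INSM1, at 11770 CPM in replicate 1 and 22533 CPM in replicate 2. Both values exceeded those of every other tested cluster in either library, the highest of which was 4933 CPM. The log2 fold change was 5.77 (SE 0.16, adjusted p = 2.47e-17, edgeR). Cluster 10 made up 3.37% and 4.46% of cells and held 47.0% and 64.1% of CRABP1 UMI.

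After cluster 10 came cluster 13, whose cells had 9 neural progenitor markers while AHSG and AFP were among the leading genes, at 2068 and 4933 CPM. Neuron-like cluster 4 followed at 2040 and 3421 CPM, which in replicate 1 is not distinguishable from cluster 13. Roof plate-like cluster 17 was next at 1558 and 1593 CPM. All 3 were called higher by edgeR, with log2 fold changes of 3.55 (adjusted p = 1.51e-12) in cluster 13, 2.63 (adjusted p = 7.09e-10) in cluster 4 and 2.04 (adjusted p = 3.39e-07) in cluster 17. The cluster 17 call was lost against the sum of all other cells (log2 fold 0.11, adjusted p = 0.918), a sum that includes cluster 10. Cluster 14, nearly all of it in replicate 1, had 5429 CPM there, and cluster 20, nearly all of it in replicate 2, had 542 CPM.

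The other 13 tested clusters lay between 92.0 and 576 CPM of CRABP1, and many neighbours in that order overlapped between libraries. Noradrenergic neuron-like cluster 5 stood at 449 and 576 CPM and was not called in either direction, and its difference from clusters 4 and 10 was not tested. Called lower were neural progenitor-like clusters 0, 1, 2, 6 and 11, floor plate-like clusters 3 and 15 and mesenchyme-like cluster 9, with log2 fold changes between −2.36 and −0.79. The calls in clusters 1 and 6 were lost without the library term in the fit and with smaller clusters included. Clusters 3, 9 and 15 had 99.95 to 126 CPM in replicate 1 and 92.0 to 113 CPM in replicate 2, and the erythroid-like cells had 44.2 and 75.7 CPM.

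**Figure D2:**
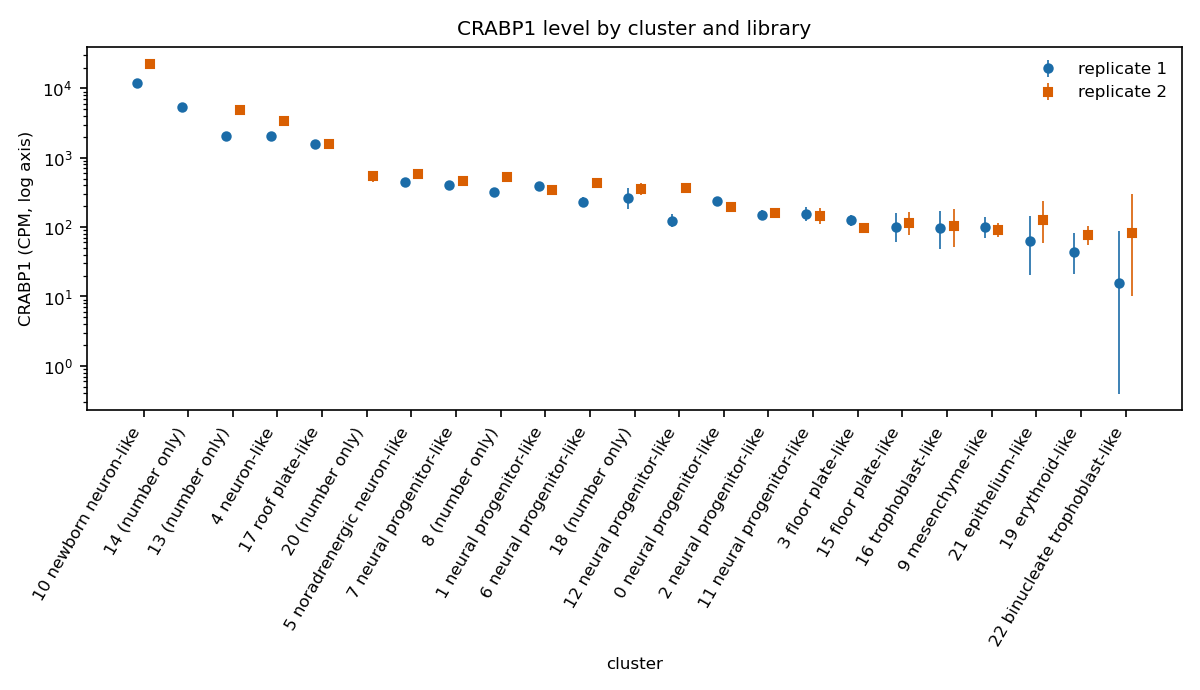
CRABP1 level (CPM, log axis) in all 23 clusters, with points for replicate 1 and replicate 2 and exact Poisson 95% intervals as bars; clusters 14 and 20 show their larger library alone. Newborn neuron-like cluster 10 is highest at 11770 and 22533 CPM, and the clusters other than 10, 13, 14, 4 and 17 lie at or below 576 CPM.

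Few cells carried most of the CRABP1. The 21 highest of 1842 cells in replicate 1 (1.14%) and the 27 highest of 2310 in replicate 2 (1.17%) held 50% of its UMI, with up to 862 and 884 UMI in 1 cell, while the median cell had 1 UMI. At least 1 UMI was found in 62.0% and 60.6% of all cells, or 40.1% and 38.2% once each cell was thinned to 2000 UMI. In cluster 10 the share was 75.8% (exact Clopper-Pearson 95% interval 63.3 to 85.8) and 85.4% (77.1 to 91.6), at median depths of 8531 and 9426 UMI. In the erythroid-like cells, which should lack the gene, it was 55.6% and 76.2% at 27366 and 24710 UMI. After thinning, the shares were 56.7% and 69.9% in cluster 10, against 22.2% and 10.0% in the erythroid-like cells. Before thinning the intervals of the 2 clusters overlapped in both libraries (21.2 to 86.3 and 52.8 to 91.8 in the erythroid-like cells).

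Cluster 10 was not uniform. Divided again with CRABP1 left out, it gave 5 sub-clusters, of which 10d and 10e carried 91.0% and 88.3% of its CRABP1 UMI. Sub-cluster 10d, led by DLL3, PAX3 and EPHA3, had 8 and 19 cells at 41310 and 48960 CPM. Sub-cluster 10e, with NEFL, NEFM and SLC17A6 among its leading genes, a set that includes neurofilament genes and the gene of a vesicular glutamate transporter, had 11 and 28 cells at 26584 and 32575 CPM. The remaining sub-clusters 10a, 10b and 10c stood between 940 and 6905 CPM.

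Cell by cell the same division was visible. With cells thinned to 2000 UMI, all 8 and all 19 cells of sub-cluster 10d had at least 10 CRABP1 UMI, ranging from 41 to 125 in replicate 1 and from 31 to 188 in replicate 2. In sub-cluster 10e 7 of 11 and 22 of 28 cells reached 10 UMI. In sub-clusters 10a, 10b and 10c together the median cell had 0 and 1 UMI. HOXB2, a hindbrain HOX gene that retinoic acid can induce, stood at 252 and 221 CPM in sub-clusters 10d and 10e, against 248 and 171 CPM in the other sub-clusters. HOXA3 stood at 78.0 and 60.7 CPM in 10d and 10e, against 22.8 and 32.4 CPM in the others, higher in both libraries. HOXB3 ran the other way, at 11.999 and 6.50 CPM against 31.4 and 25.9 CPM. PAX3, a dorsal neural factor that is among the genes that led 10d, had 150 and 97.5 CPM in 10d and 10e, against 8.56 and 8.64 CPM in the others. The division was made after the levels of cluster 10 had been seen, so these values are a description with no test.

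**Figure D3:**
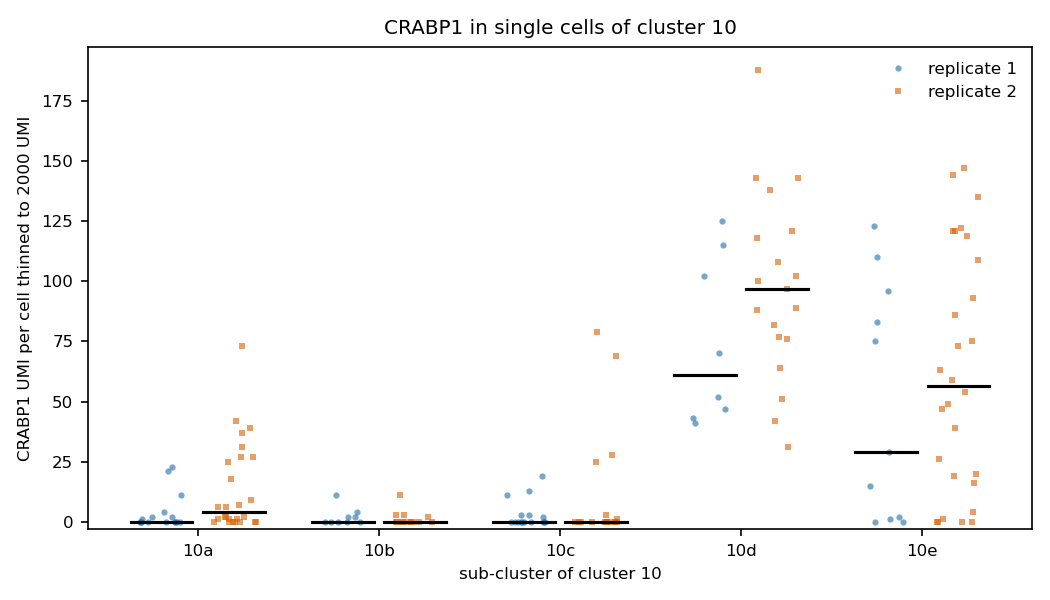
CRABP1 UMI per cell, each cell thinned to 2000 UMI, in the 5 sub-clusters of cluster 10, with 1 point per cell, a bar at the median and replicate 1 left of replicate 2. Every cell of 10d lies at or above 31 UMI, while the other sub-clusters reach down to 0.

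CRABP2, the paralog that hands retinoic acid to the receptors, had 14 UMI in all cells. Of these, 6 were in cluster 18, at 21.8 and 10.8 CPM, and 8 of the 17 tested clusters had none in either library. Sub-cluster 18a held 3 and 2 of these 6 UMI, and 18b held 0 and 1. In the fit with no filter on low counts, cluster 18 was called higher (log2 fold change 5.25, adjusted p = 0.00103, edgeR). In that fit 18.6% of pairs of other genes left out of clustering were called higher.

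CYP26B1, which degrades retinoic acid in the hindbrain and other tissues, had 8 UMI in replicate 1 and 31 in replicate 2. In the fit with no filter it was called higher in cluster 4, at 2.72 and 13.4 CPM (log2 fold change 3.95, adjusted p = 7.94e-05, edgeR), and in cluster 10, at 0 and 11.9 CPM (log2 fold change 3.92, adjusted p = 0.000117, edgeR). Cluster 18, at 0 and 17.9 CPM, and cluster 0, at 6.68 and 1.27 CPM, were called as well with adjusted p of 0.00472 and 0.0107 by edgeR. Clusters 10 and 18 had no CYP26B1 UMI in replicate 1, so each rests on 1 library. All 11 CYP26B1 UMI of cluster 10 were in sub-clusters 10a and 10e. No cell held both an ALDH1A2 and a CYP26B1 UMI, of 47 cells with the one and 23 with the other, and their shares alone would give 0.26 such cells.

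Of the receptors, RARA, the most widely expressed retinoic acid receptor in mammals, had UMI in every tested cluster and library, between 2.43 and 50.3 CPM. It was highest in mesenchyme-like cluster 9 by the fit, at 42.8 and 46.0 CPM (log2 fold change 2.17, SE 0.29, adjusted p = 4.31e-10, edgeR). Newborn neuron-like cluster 10 had 34.8 and 48.7 CPM (log2 fold change 1.49, SE 0.25, adjusted p = 7.12e-07, edgeR), and noradrenergic neuron-like cluster 5 had 50.3 and 36.5 CPM (log2 fold change 1.37, SE 0.28, adjusted p = 2.17e-05, edgeR). The 3 clusters overlapped in level between the libraries.

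RARA was also called higher in cluster 12, at 23.1 and 35.3 CPM, a call that limma-trend did not make (adjusted p = 0.0858). It was called lower in neural progenitor-like clusters 0, 1, 7 and 11, with log2 fold changes between −1.87 and −0.92 by edgeR, and the call in cluster 7 was lost under 5 of the alternatives. The log2 fold change in cluster 11 was −0.52 without replicate 2 and −3.20 without replicate 1, and in cluster 1 it was −1.03 and −2.42. These 4 clusters are among those with the low share of ribosomal protein UMI.

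RARB, a receptor gene that retinoic acid itself induces through an element in its promoter, was distributed differently. It was highest in floor plate-like cluster 15, led by ADAMTS16, at 266 and 137 CPM (log2 fold change 2.01, SE 0.30, adjusted p = 1.86e-06, edgeR), and in cluster 18, at 175 and 176 CPM (log2 fold change 1.99, SE 0.31, adjusted p = 1.21e-05, edgeR). The other floor plate-like cluster, 3, was called higher too, at 101 and 73.1 CPM (log2 fold change 1.25, SE 0.21, adjusted p = 7.99e-06, edgeR). Ribosomal protein genes took 2.89% and 2.85% of UMI in cluster 15 and 23.6% and 23.0% in cluster 3. Within cluster 18, RARB stood at 302 and 364 CPM in sub-cluster 18a, against 44.2 and 72.3 CPM in 18b, with no test.

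Neuron-like cluster 4 had 129 and 92.1 CPM of RARB (log2 fold change 1.18, SE 0.23, adjusted p = 9.18e-05, edgeR), and mesenchyme-like cluster 9 had 34.3 and 92.0 CPM (log2 fold change 1.51, SE 0.29, adjusted p = 5.22e-05, edgeR). The cluster 9 value rests on replicate 2, since the log2 fold change was 0.20 without it and 2.06 without replicate 1. The lowest level of RARB was in cluster 13, at 6.94 and 12.6 CPM (log2 fold change −1.88, SE 0.42, adjusted p = 0.000464, edgeR). Neural progenitor-like clusters 0, 1 and 6 and cluster 8 were called lower as well, with log2 fold changes between −1.58 and −0.81. These 5 lower calls were lost when the 3 clusters of at least 5 but under 20 cells per library entered the fit. Clusters 10 and 13, with the 2 highest CRABP1 levels of the tested clusters, had 42.5 and 21.6 CPM and 6.94 and 12.6 CPM of RARB. In cluster 10 RARB was not called (log2 fold change −0.48, adjusted p = 0.256, edgeR). Cluster 4, next in CRABP1, was among those called higher in RARB. Over the 17 clusters, log2 levels of CRABP1 and RARB had Pearson's r of −0.40, those of CRABP1 and RARA 0.27 and those of DHRS3 and RARA 0.54. These values are a description over clusters that share 2 libraries and differ in depth.

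RARG, a receptor known from mesenchyme and cartilage, had 20 of its 45 UMI in neural progenitor-like cluster 0, at 14.7 and 11.5 CPM. In the fit with no filter, cluster 0 was called higher (log2 fold change 3.57, adjusted p = 8.43e-06, edgeR), as was mesenchyme-like cluster 9 at 2.86 and 7.66 CPM (log2 fold change 3.53, adjusted p = 0.00202, edgeR). Cluster 0 was one in which RARA was called lower, at 6.68 and 7.64 CPM.

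Cell by cell, RARA and DHRS3 were found together in 42 cells, of 474 and 164 cells with each, where their shares alone would give 18.7. RARB and DHRS3 were found together in 56 cells, against 27.0 from their shares. Cells of greater depth show more genes at once, and the shares were taken over all cells whatever their cluster. RARA, RARB and DHRS3 were all called higher in cluster 9. The parts of depth and of cluster in these counts were not tested.

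Other genes of the pathway were read from a list of 38 that holds retinol carriers, dehydrogenases, RXR receptors and cofactors, of which 35 were in the table and 20 were tested. ALDH1A1, ALDH1A3, CYP26A1 and CYP26C1, the other synthesizing and degrading enzymes of the list, had 6, 4, 12 and 9 UMI over all cells and were not among the tested. In mesenchyme-like cluster 9 6 of 20 were called higher and 4 lower, beside 29.6% and 24.9% of other genes. RBP4, the blood carrier of retinol, led there at 9550 and 8338 CPM (log2 fold change 8.52, SE 0.07, adjusted p = 6.78e-82, edgeR). RBP4 was one of the genes that led cluster 9 among all genes, so that cluster combined high levels of the carrier and of DHRS3 with no ALDH1A2 or STRA6 UMI.

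In cluster 13 12 of 20 pathway genes were called higher and 3 lower, with a median log2 fold change of 0.95, beside 30.2% and 13.2% of other genes and a median of 0.19. TTR, the partner of RBP4 in blood, led that list there at 1.39 and 182 CPM, and the 2 libraries differed widely. TTR was also the leader in roof plate-like cluster 17, at 59.4 and 330 CPM (log2 fold change 6.28, SE 0.64, adjusted p = 2.92e-06, edgeR). In neural progenitor-like cluster 0, where ALDH1A2 and RARG stood out, 5 of 20 were called higher and 9 lower, beside 32.5% and 25.1% of other genes. LRAT, which stores retinol as esters, led there at 38.8 and 36.9 CPM (log2 fold change 4.68, SE 0.48, adjusted p = 9.54e-14, edgeR). RDH10, the main retinol dehydrogenase of embryos, stood at 50.8 and 68.8 CPM in the same cluster (log2 fold change 2.22, SE 0.24, adjusted p = 7.43e-13, edgeR), and was picked out after its values were seen.

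Genes known to respond to retinoic acid were read from a list of 24, mostly HOX genes, all in the table, of which 16 were tested. In cluster 18, where ALDH1A2 and STRA6 were highest, 13 of 16 were called higher and 1 lower, with a median log2 fold change of 2.88, beside 12.6% and 5.47% of other genes and a median of 0.01. HOXA5 led at 87.3 and 75.3 CPM (log2 fold change 8.12, SE 0.68, adjusted p = 1.05e-15, edgeR), and NR2F1 was the 1 called lower. HOXA5 and HOXD4 were also among the leading genes of the cluster among all genes. Of the 6 retinoic acid genes tested, 4 were called higher and 0 lower in cluster 18. The same was true of cluster 12, beside 25.4% and 5.44% of other genes. The cluster 12 calls of ALDH1A2, STRA6 and RARA were each lost under at least 1 alternative. ALDH1A2, STRA6 and DHRS3 had no count in some clusters, so they could not be called lower.

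In cluster 10, where CRABP1 was highest, 10 of 16 target genes were called higher and 0 lower, with a median log2 fold change of 1.497, beside 30.3% and 17.6% of other genes and a median of 0.09. HOXB2 led at 249 and 196 CPM (log2 fold change 3.42, SE 0.17, adjusted p = 1.35e-30, edgeR). The summed level of the 14 HOX genes of the list was 408 and 330 CPM in cluster 10 and 458 and 610 CPM in cluster 18, against 27.3 to 160 CPM in the other 15 tested clusters. These 2 clusters stood apart in other genes: ALDH1A2 had no UMI in the 62 and 103 cells of cluster 10, and CRABP1 stood at 262 and 355 CPM in cluster 18.

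In cluster 12 7 of 16 target genes were called higher and 0 lower, beside 25.4% and 5.44% of other genes, led by RARRES2. In cluster 13 9 of 16 were called higher and 2 lower, with a median of 1.05, beside 30.2% and 13.2% of other genes and a median of 0.19. In mesenchyme-like cluster 9 7 of 16 were called higher, led by HOXC4, and 6 lower, of which HOXA3 had the lowest fold. Of other genes 29.6% and 24.9% were called so in that cluster. In cluster 4 6 were called higher and 0 lower, beside 25.7% and 23.5% of other genes, led by MEIS2 at 2738 and 2598 CPM.

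By the correlation of log2 levels over the 17 tested clusters, among 7879 genes, the genes most like CRABP1 were PPP1R1A (r = 0.84), WSCD1 (r = 0.83) and STMN2 (r = 0.81), the last a neuronal gene. The genes most like DHRS3 were the collagen gene COL3A1 (r = 0.91), PKIG (r = 0.91) and the collagen gene COL1A2 (r = 0.88). For RARA they were SHISA4 (r = 0.88) and ATP6V0C (r = 0.88), and for RARB they were IRF2 (r = 0.82), CHSY3 (r = 0.81) and PRICKLE2 (r = 0.79). The points share libraries and clusters that differ in depth, so these are descriptions.

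The libraries differed in CRABP1. Over all cells its level was 1169 CPM in replicate 1 and 2127 CPM in replicate 2, a log2 ratio of replicate 1 over replicate 2 of −0.86 (exact 95% interval −0.89 to −0.83, counting error only). With 1 library on each side there is no test. Among 12118 genes of at least 100 UMI, 0.413% had a lower ratio, and 0.305% were at least 2-fold lower in replicate 1. The share of cells with a CRABP1 UMI did not differ in the same way, at 62.0% and 60.6%.

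**Figure D4:**
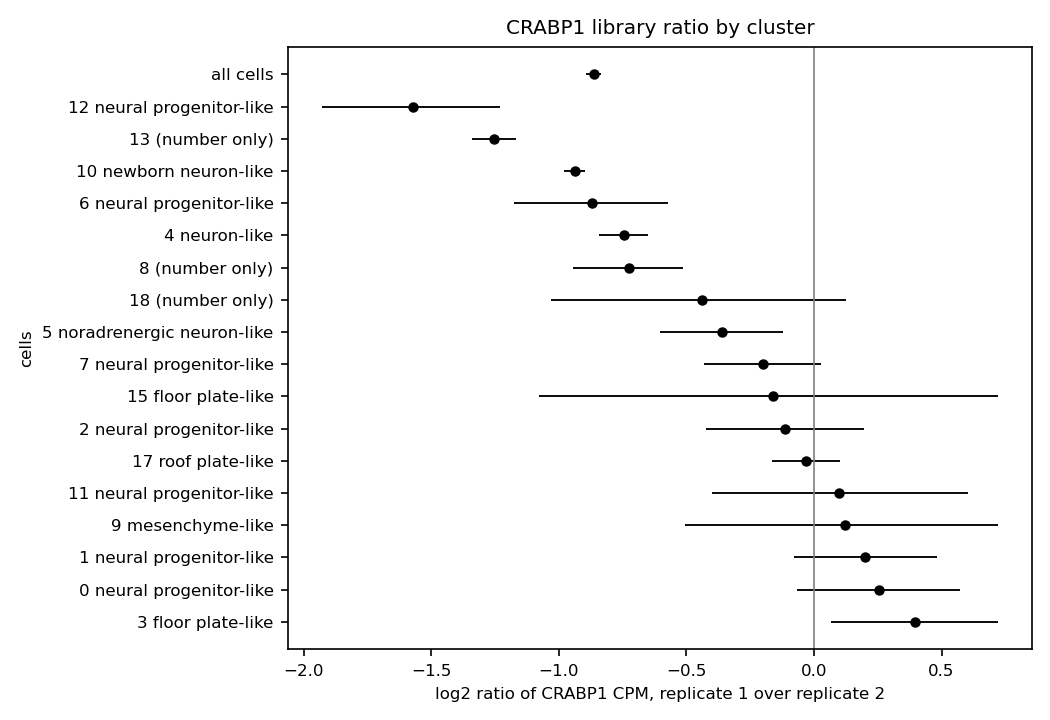
Log2 ratio of the CRABP1 level in replicate 1 over replicate 2, with exact 95% intervals as bars, in all cells and in each of the 17 tested clusters. Ratios run from −1.57 in cluster 12 to 0.39 in cluster 3, with cluster 10 at −0.94.

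The difference was uneven among clusters. The lowest ratio was that of cluster 12, at 124 CPM in replicate 1 and 369 CPM in replicate 2 (log2 ratio −1.57), and no gene of that cluster with at least 100 UMI had a lower one. Cluster 13 had −1.25 and cluster 10 had −0.94, and 0.369% and 0.470% of the genes of those clusters lay lower. Cluster 6 had −0.87, at 233 and 426 CPM, and 0.349% of its genes lay lower. Cluster 4 had −0.75 and cluster 8 −0.73. In cluster 17 the libraries were close (−0.03), and in cluster 3 replicate 1 was higher (0.39, exact interval 0.07 to 0.72). The ratios of 0.25 in cluster 0 and 0.20 in cluster 1 had intervals that included 0. Clusters 12 and 13 were past 2-fold, as were 0.0876% and 0.638% of their genes in that direction.

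In clusters 12, 13 and 8 a few cells of replicate 2 held much of the CRABP1 behind these ratios. In cluster 12 the highest 14 of 84 cells in replicate 1 and the highest 4 of 118 in replicate 2 held 50% of the UMI, with up to 9 and 65 UMI in 1 cell, and the median cell had 1 UMI in both libraries. In cluster 13 it was 12 of 83 and 5 of 107 cells, with medians of 9 and 11 UMI, and in cluster 8 it was 12 of 87 and 5 of 161 cells, with a median of 1 UMI in both. In cluster 4 it was few cells in both libraries, 6 of 151 and 5 of 146, with up to 185 and 609 UMI in 1 cell. In cluster 6 it was 11 of 97 and 12 of 108 cells. Cluster 10 ran the other way, with 5 of 62 and 16 of 103 cells holding 50% of the UMI. Its median cell stood at 5 UMI in replicate 1 and 72 UMI in replicate 2.

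Set side by side, cluster shares and levels within clusters contributed unequally, in a balance that changed once sub-clusters were used. Clusters 14 and 20, each nearly all from 1 library, were left out, so their part in the shares is not counted. Cluster 14 held 9.74% of the CRABP1 UMI of replicate 1. Over the 17 tested clusters CRABP1 stood at 1126 and 2262 CPM. With the same cluster shares in both libraries and each library's own levels the values were 1192 and 2135 CPM (log2 ratio −0.84), and with own shares and the same levels they were 1567 and 1760 CPM (log2 ratio −0.17). Once clusters 4, 10, 13 and 18 were divided into sub-clusters, the balance moved: the same shares gave 1397 and 1931 CPM (log2 ratio −0.47), and own shares with the same levels gave 1363 and 1965 CPM (log2 ratio −0.53). Without cluster 10 the 16 other clusters gave 566 and 860 CPM (log2 ratio −0.60).

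Within cluster 10 the sub-clusters rich in CRABP1 were a smaller part of replicate 1. Sub-clusters 10d and 10e made up 30.6% of its cells in replicate 1 (19 of 62, exact interval 19.6 to 43.7) and 45.6% in replicate 2 (47 of 103, 35.8 to 55.7), intervals that overlap. They stood at 33237 and 39841 CPM, and the other sub-clusters at 1566 and 5273 CPM. With the same shares the ratio of cluster 10 was −0.42, and with the same levels it was −0.49. In cluster 13, by contrast, the same shares left −1.19, and in sub-cluster 13d, led by AHSG and SERPINA1, 8 cells of replicate 1 stood at 1521 CPM against 10 cells of replicate 2 at 16471 CPM. A few cells carried that gap: after thinning, the median cell of 13d had 2 UMI in replicate 1 and 1 UMI in replicate 2, and 1 of 7 and 3 of 10 cells reached 10 UMI. In sub-cluster 4f the libraries were close, at 12456 and 13166 CPM from 9 and 15 cells.

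Of the other 8 genes, 3 had ratios whose interval did not include 0. DHRS3 had a log2 ratio of −0.62 (−0.96 to −0.29), and 1.02% of genes lay lower. Cluster 9, its main source, was 1.85% of cells in replicate 1 and 3.07% in replicate 2. RARB had 0.30 (0.14 to 0.46), where 86.3% of genes lay lower and the median gene was at 0.11, and the ratio was 0.19 with a TMM factor. CYP26B1 had −1.49 (−2.82 to −0.34), from 8 against 31 UMI. For CRABP2, ALDH1A2, RARA, RARG and STRA6 the interval over all cells included 0. Within cluster 18, where ALDH1A2 was highest, its interval did not (log2 ratio 1.95, 0.77 to 3.21).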

How the data were processed

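The authors deposited raw UMI counts per gene and barcode for both libraries. Seurat 4.3.0, R 4.1.2, Cell Ranger (no version) and bosTau9 appear per the submitters' processing notes. Cells under 500 genes or 1000 UMI, or above 15% mitochondrial counts, were dropped. Scrublet called 1 and 6 doublets (0.168%), so doublets may remain in every cluster. Cells were clustered with scanpy 1.11.5 (2000 variable genes, 30 components, 15 neighbours, Leiden at resolution 1.0, seed 0), leaving out 8885 genes: the 9 retinoic acid genes, both lists, GFP and a random 50% of the genes that are no cell type marker. The members and lists were chosen, and the cluster naming rule was set, with earlier results of these data known. A marker counted as detected at 20 CPM and 25% of its highest level.

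Counts summed per cluster and library were fitted with edgeR 4.0.16 (R 4.3.3, robust quasi-likelihood, TMM, filterByExpr, library as a term) over 11881 genes in 34 summed samples, with 16 residual degrees of freedom. A gene with no count in another cluster cannot be called lower by this contrast. The SE given with a fold is the absolute log2 fold change divided by the square root of the F statistic, not an edgeR output. For genes with no count in some clusters it depends on the prior count as the fold does. Library was kept as a term because every cluster was measured in both libraries. DESeq2 1.42.0 and limma-trend (limma 3.58.1, prior count 2) were alternatives. On simulated data 4-fold changes were found in 88% and 2-fold changes in 59% of changed genes for cluster 10, over 10899 genes with 11 false calls, and in 77% and 31% for cluster 18, over 10940 genes with 3 false calls. The changed genes were drawn from those of at least 200 UMI, so these values do not cover ALDH1A2 and STRA6. Named were all 9 genes, the list genes with the highest and lowest called fold in a cluster, and for each member of at least 200 UMI the 3 genes most like it (log2 of CPM plus 1, genes of at least 50 CPM in a cluster). Not every gene named in this way is reported here. Poisson intervals of levels and Clopper-Pearson intervals of shares are exact at 95%, and the floor for a count of 0 is 3 counts.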

Additional observations from a re-analysis of the deposited data

How the results depend on the processing

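Of the 41 called pairs of gene and cluster, 26 kept direction and call in every tested alternative and 15 lost the call in at least 1. The 24 higher and 17 lower calls became 14 higher among 56 tested pairs when clusters of at least 50 cells per library entered, and 35 lower when each cluster was set against the sum of all other cells. Lower calls over all genes were 49095 in that setting (14371 genes), against 33393 (11881 genes). With limma-trend there were 19 higher and 23 lower. With no replicate block (no library term) there were 24 higher and 14 lower, and CRABP1 in clusters 1 and 6 and RARB in cluster 8 lost their calls. DHRS3 in cluster 3 turned to −0.46 against the sum of all other cells, and ALDH1A2 in cluster 12 was −2.30 without replicate 2 and 3.79 without replicate 1, values with no test. The cause was not tested. The CRABP1 log2 ratio over all cells, −0.86, became −0.98 with a TMM factor, −0.999 without the clusters mostly of 1 library, −0.64 with cells thinned to 2000 UMI and −0.33 with cluster 10 left out. The last value still covered clusters 14 and 20, which the split of shares and levels left out. At fixed cluster shares the ratio of −0.84 became −0.74 with thinned cells and −0.47 with sub-clusters (leaving out cluster 10 and dividing clusters were chosen after seeing the data). The shares of cells with CRABP1, 62.0% and 60.6%, became 40.1% and 38.2% with thinned cells. Depth limits STRA6, ALDH1A2, RARG, CYP26B1 and CRABP2 most, each with under 100 UMI.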
